A study of Rattus norvegicus with 33 samples.

Results

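Periostin, fibronectin, the small leucine-rich proteoglycans and the lysyl oxidases of the muscle matrix were followed across 11 groups of rat soleus, a slow postural muscle of the calf. The group is a list of gene symbols: Postn, Sparc, Fn1, Tnc, Lum, Dcn, Bgn, Fmod, Lox and Loxl1. Each of 9 of the 10 genes had 1 row on the array under its own symbol, out of 14506 genes with such a row. Tnc, the gene of tenascin C, had none and was not analysed here.

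All animals were female Wistar rats, with 3 animals and 3 arrays in each group. In the spinal cord injury experiment, SCI rats had the cord fully cut between the 9th and 10th thoracic vertebrae at 9 weeks of age. After 14 weeks they had the surgery for implanting a stimulator, without the device, together with a cut of the gastrocnemius insertion into the Achilles tendon, and soleus was taken 21 days later. The SCI-ES rats had the same cord transection and tendon cut and carried the stimulator, which from 16 weeks after transection made the soleus, plantaris and tibialis anterior contract together for 1 h per day at 1.5 V and 40 Hz, over 1, 3 or 7 days (electrical stimulation, ES). Sham-SCI rats of similar age had the laminectomy with the cord left whole, and the sources used here describe no later surgery for them. SCI and SCI-ES thus shared a tendon cut that is not stated for Sham-SCI, and its effect and that of the transection cannot be told apart. In the gastrocnemius ablation (GA) experiment, rats of 22 to 23 weeks with an intact cord had the gastrocnemius insertion cut, which overloads the soleus, and Sham-GA rats had the same surgery without the cut. Their soleus was taken 1, 3 or 7 days after surgery.

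These genes encode proteins that fibroblasts of the muscle connective tissue release around the fibres. Periostin, SPARC and fibronectin are glycoproteins that bind collagen or other matrix proteins. Lumican, decorin, biglycan and fibromodulin are small leucine-rich proteoglycans, which bind collagen fibrils and affect their width and spacing. Lysyl oxidase and its relative LOXL1 oxidise lysines in collagen and elastin, the step that leads to covalent crosslinks. In skeletal muscle this matrix is known to be rebuilt after injury, overload and disuse.

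Expression is given as log2 values, on which a difference of 1 is a doubling, and levels of different genes cannot be compared on this scale because each was read by its own probes. A gene was called changed where limma's moderated test gave a Benjamini-Hochberg adjusted p under 0.05 over all genes tested, together with a difference of at least 1.5 fold. Precision was limited by there being 3 animals to a group. Arrays of 1 group correlated with each other between 0.972 and 0.994 over all rows, and no array was a copy of another. The 10 muscle fibre genes listed as markers (Acta1, Ckm, Myh7 and others) averaged between 12.37 and 13.46 on every array. This mean marks skeletal muscle and does not by itself identify the soleus. The RNA came from whole muscle, in which fewer cells of a type and less RNA per cell cannot be told apart.

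Promoter sequence was at hand for 6 of the 10 genes in the RefSeq table of build GRCr8. These are windows of 300 bases, of which the first 250 precede the start point set for the window. For Sparc, Loxl1 and Fmod this point was the 5′ end of the annotated gene. The Postn and Lum windows begin inside the annotated gene, which starts at chr2:140677774 for Postn and at chr7:34245323 for Lum. The windows of 4 of the 5 genes that were called higher in both time courses described here (Postn, Sparc, Lum and Loxl1, the other being Bgn), and of Fmod, whose pattern stood apart, are shown 5′ to 3′ on the gene's own strand, so that genes that moved together can be compared letter by letter. Capitals mark the TATA box (TATAAA), the CCAAT box (CCAAT), the SMAD-binding letters CAGACA and the TEAD-binding letters GGAATG, each on either strand. The windows lie at chr2:140677811-140678110 (Postn, plus strand), chr10:40038767-40039066 (Sparc, minus strand), chr7:34245456-34245755 (Lum, plus strand), chr8:67612175-67612474 (Loxl1, minus strand) and chr13:48045317-48045616 (Fmod, plus strand).
Postn: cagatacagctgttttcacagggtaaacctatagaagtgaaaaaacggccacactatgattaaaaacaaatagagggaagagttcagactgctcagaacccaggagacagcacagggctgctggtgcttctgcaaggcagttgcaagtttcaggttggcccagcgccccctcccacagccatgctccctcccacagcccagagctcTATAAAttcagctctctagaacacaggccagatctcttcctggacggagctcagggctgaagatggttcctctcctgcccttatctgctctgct
Sparc: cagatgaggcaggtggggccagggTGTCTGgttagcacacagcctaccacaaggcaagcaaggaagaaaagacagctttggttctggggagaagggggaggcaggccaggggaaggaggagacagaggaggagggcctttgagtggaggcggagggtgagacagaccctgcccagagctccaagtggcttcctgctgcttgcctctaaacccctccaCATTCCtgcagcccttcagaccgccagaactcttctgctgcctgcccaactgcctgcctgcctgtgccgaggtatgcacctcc
Lum: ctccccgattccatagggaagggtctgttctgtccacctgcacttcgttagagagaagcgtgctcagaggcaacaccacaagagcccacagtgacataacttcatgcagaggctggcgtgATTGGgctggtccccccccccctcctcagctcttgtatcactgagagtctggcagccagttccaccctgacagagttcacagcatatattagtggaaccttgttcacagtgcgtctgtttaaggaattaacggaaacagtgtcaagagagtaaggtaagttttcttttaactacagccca
Loxl1: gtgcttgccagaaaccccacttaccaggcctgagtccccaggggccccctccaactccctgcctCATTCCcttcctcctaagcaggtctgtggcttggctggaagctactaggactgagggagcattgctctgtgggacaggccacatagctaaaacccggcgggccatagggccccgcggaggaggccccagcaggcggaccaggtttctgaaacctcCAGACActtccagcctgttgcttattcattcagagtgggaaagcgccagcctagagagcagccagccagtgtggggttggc
Fmod: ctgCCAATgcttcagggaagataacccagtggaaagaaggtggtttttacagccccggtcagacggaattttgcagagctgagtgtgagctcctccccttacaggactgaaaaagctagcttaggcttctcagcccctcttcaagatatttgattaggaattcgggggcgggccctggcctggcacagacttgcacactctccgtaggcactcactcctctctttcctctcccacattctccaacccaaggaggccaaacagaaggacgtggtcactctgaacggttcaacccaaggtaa

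No one of these motifs was common to the 5 windows. The Postn window held TATAAA 44 bases before the start point set for that window. CAGACA lay in the windows of Sparc and Loxl1, 226 and 31 bases before the start, and so did GGAATG, 33 and 186 bases before it. CCAAT lay in those of Lum and Fmod. Among all 33469 promoters of this length, TATAAA was in 14.2%, CAGACA in 21.1%, GGAATG in 14.2% and CCAAT in 37.5%. The AP-1 letters TGANTCA, in 7.33% of all promoters, were in none of the 6 windows of these genes. The E-box letters CANNTG, in 72.1% of all, were in 4 of the 6, and the GC box GGGCGG, in 33.1%, was in 2. These matches are descriptions of the letters and say nothing of which factor was bound.

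Across the 11 groups, 7 of the 9 genes had their lowest mean in Sham-SCI, and 7 had their highest mean in GA 7 days. The exceptions were Sparc and Fmod, lowest in GA 1 day, and Lox and Loxl1, highest in GA 3 days and in Sham-GA 7 days. Postn covered the widest span, from 8.25 ± 0.52 (SD, n = 3) in Sham-SCI to 12.72 ± 0.27 in GA 7 days, which is 22.1 fold. Lox spanned 10.4 fold and Lum 8.52 fold, and Sparc, Fn1, Bgn, Fmod and Loxl1 between 4.21 and 6.47 fold. Dcn, the decorin gene, moved within 1.61 fold, from 12.72 ± 0.22 to 13.41 ± 0.12. For the 7 genes lowest in Sham-SCI, the span crosses the 2 experiments, which differ in age, surgery and time since surgery. Sham-SCI was not tested against the ablation groups, and these factors cannot be told apart. Ordered by mean, neighbouring groups overlapped in their arrays in at least 8 of 10 steps for each of the 9 genes, so that the order of adjacent groups was mostly not resolved. The plot of every array shows this order for each gene.

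**Figure D1:**
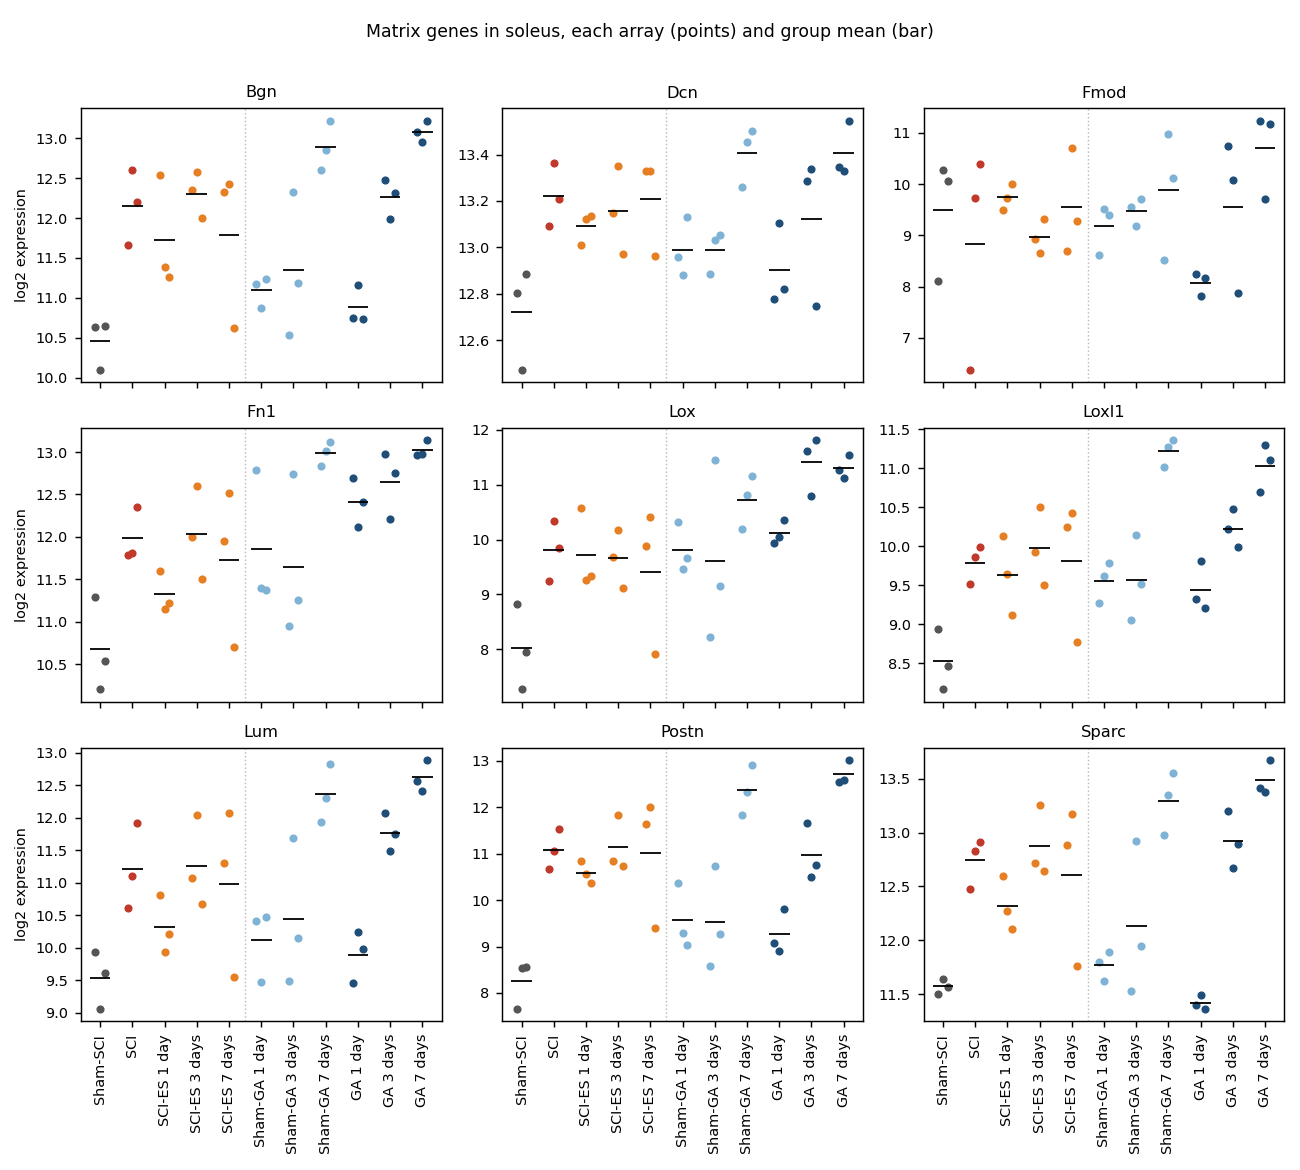
Log2 expression (vertical axis, arbitrary log2 units) of the 9 genes on each of the 33 arrays (points) in the 11 groups (horizontal axis), with the group mean as a bar. The 7-day groups of the ablation experiment sit highest for most genes, Sham-SCI sits lowest for 7 of 9, and Fmod scatters most within groups.

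The first comparison asks how the soleus of rats with a cut cord differed from that of rats with a whole cord. All but Fmod of the 9 genes lay higher in all SCI arrays than in all Sham-SCI arrays, and 1 of the 9 genes, Postn, was called higher. Among all 14456 genes tested, 0.159% were called higher and 9.14% had every SCI array above every Sham-SCI array.

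Of the glycoproteins, Postn read 7.66, 8.54 and 8.56 on the Sham-SCI arrays and 10.66, 11.06 and 11.52 on the SCI arrays. All SCI arrays lay more than 2 log2 units above the highest Sham-SCI array. The difference was 2.83 ± 0.54 (SE), or 7.11 fold (limma adjusted p = 0.043). Sparc, a collagen-binding protein, gave 11.51, 11.64 and 11.57 against 12.48, 12.83 and 12.92, which is 1.17 ± 0.29 higher (adjusted p = 0.090). Fn1, which encodes fibronectin, gave 11.29, 10.21 and 10.54 against 11.79, 11.81 and 12.36, a difference of 1.31 ± 0.41 (adjusted p = 0.165). Both genes were thus higher in each SCI animal without passing the test.

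Among the proteoglycans, Bgn read 10.64, 10.10 and 10.65 in Sham-SCI and 11.66, 12.61 and 12.20 in SCI, a difference of 1.69 ± 0.44 (adjusted p = 0.109). Lum gave 9.93, 9.06 and 9.61 against 10.62, 11.11 and 11.92, a difference of 1.68 ± 0.55 (adjusted p = 0.178). Dcn was 0.50 ± 0.14 higher (adjusted p = 0.134), the smallest of the 8 positive differences. Fmod, the fibromodulin gene, was the one member whose groups overlapped, at 8.12, 10.27 and 10.07 against 6.38, 9.73 and 10.40.

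The crosslinking enzymes were also higher on every SCI array. Lox read 8.83, 7.28 and 7.95 in Sham-SCI and 9.25, 10.34 and 9.85 in SCI, a difference of 1.79 ± 0.59 (adjusted p = 0.180). Loxl1 differed by 1.27 ± 0.40 (adjusted p = 0.165). The median difference of the 9 genes was 1.31, beside -0.02 over all genes tested.

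Pooling the 12 arrays of the 4 groups with a cut cord against the same 3 Sham-SCI arrays gave 4 of 9 genes called higher, where 0.941% of all genes were. Postn was 2.71 ± 0.43 higher (adjusted p = 0.008), Bgn 1.53 ± 0.35 (adjusted p = 0.037), Loxl1 1.28 ± 0.31 (adjusted p = 0.049) and Sparc 1.06 ± 0.23 (adjusted p = 0.030). Lox at 1.63, Lum at 1.41, Fn1 at 1.09 and Dcn at 0.45 had adjusted p between 0.053 and 0.101, and Fmod at -0.21 had 0.914. This pooled comparison shares all its Sham-SCI arrays and its SCI arrays with the one before.

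These calls depended on single arrays and on the test. Without any 1 of its 6 arrays the Postn call of SCI against Sham-SCI ended, with adjusted p between 0.065 and 0.154 and differences between 2.53 and 3.04. In the pooled comparison Postn lost its call without Sham-SCI replicate 1 (adjusted p = 0.063) or replicate 3 (0.0560), and Sparc, Bgn and Loxl1 lost theirs without any 1 Sham-SCI array. Leaving out 1 of the 12 arrays with a cut cord ended the Loxl1 call for 10 of them, the Bgn call for 6 and the Sparc call for 2. An analysis of variance over all cord groups, adapted from the study's methods, gives each gene 1 p for both comparisons. The Benjamini-Hochberg adjustment was added here, as those methods name none. By this test all 4 pooled calls and the Postn call of SCI ended, with adjusted p between 0.248 and 0.395. The paper itself lists Postn among the genes most upregulated after SCI. The Postn call of SCI also ended with the replicate number as a block (adjusted p = 0.055 in limma). Without SCI-ES 7 days replicate 3, which was the lowest of its group for 8 of the 9 genes, 7 genes were called, with Fn1, Lum and Lox added, and over all genes 434 were called, against 243 with it. That array was singled out after its values were seen. Marker levels of other cell types differed between these groups too. The mean of the 10 fibroblast markers measured of 15 listed lay between 7.78 and 8.09 in Sham-SCI and between 8.60 and 9.02 in SCI, and that of the muscle fibre markers between 13.22 and 13.46 and between 12.61 and 12.95. None of the markers in these 2 lists was called in SCI against Sham-SCI. In the pooled comparison 3 of the 10 fibroblast markers were called higher and 0 of the 10 muscle fibre markers were called. The muscle fibre list includes slow-fibre genes such as Myh7, Tnnc1 and Tnni1, which the paper found lower after SCI by quantitative PCR. Its mean is therefore not a measure of fibre amount alone. The 15 fibroblast markers listed include genes of matrix proteins, such as Col6a1 and Mfap5. Their mean is likewise not taken as a measure of fibroblast amount. The part of these cell types in the differences was not tested.

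The other matrix genes pointed mostly the same way in SCI against Sham-SCI, with no call. Of 18 genes for fibrillar collagens and their processing, 16 were above 0 in SCI against Sham-SCI, with a median of 1.04. Col3a1, the type III collagen chain, was at the top with 2.22 (adjusted p = 0.081), and P4ha1 at the bottom with -0.39. Of 16 elastic fibre genes, 15 were above 0, with a median of 0.69, and of 9 other small leucine-rich proteoglycans 6 were, with a median of 0.38. The 9 other crosslinking enzymes had a median of 0.15 and the 13 other matricellular genes 0.25. All 10 fibroblast markers were above 0, with a median of 0.90. For TGF-β ligands, receptors and targets, a pathway known to induce matrix genes, the median of 14 genes was 0.26, from Ccn2 at -0.75 to Ltbp1 at 1.29. With the 4 groups pooled, 4 of the 18 collagen genes, 3 of 19 metalloproteinases and inhibitors, 1 of the 16 elastic fibre genes, 1 of the 9 other small leucine-rich proteoglycans and 1 of the 9 other crosslinking enzymes were called higher, beside the 0.941% of all genes. Of 14 large and cell-surface proteoglycans and of 15 matrix receptors, 1 was called higher and 1 lower in each list. Of all genes 0.74% were called lower in this pooled comparison.

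**Figure D2:**
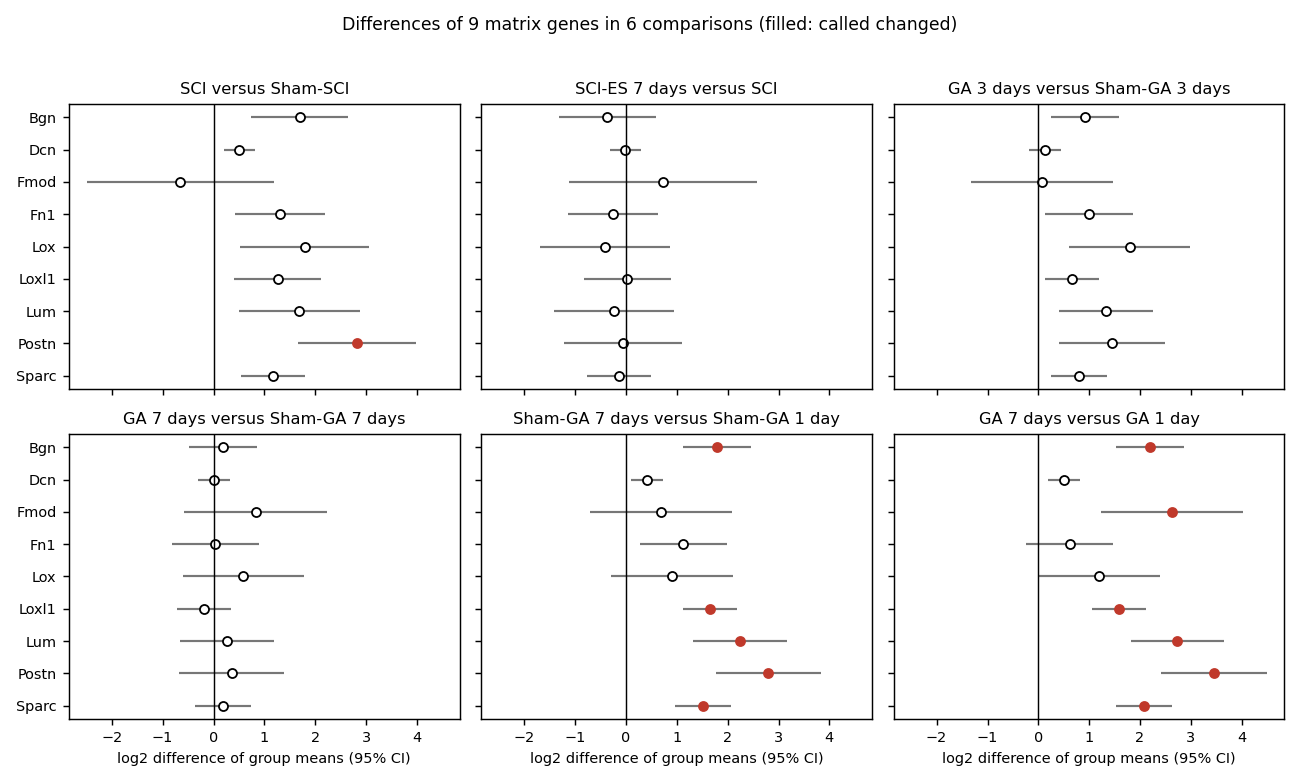
Difference of group means (horizontal axis, log2, with the 95% confidence interval of limma's fit as a line) for the 9 genes in 6 comparisons, filled where the gene was called changed. Postn alone is filled in SCI versus Sham-SCI, none in the 3 comparisons of stimulation or ablation with their own controls, and 5 and 6 genes in the 2 time courses.

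The next question was whether electrical stimulation moved these genes in the paralysed muscle. Against SCI, limma called 0 of the 9 genes after 1 day, after 3 days and after 7 days of ES. The analysis of variance over all cord groups called 0 as well. It gives each gene the same p as for SCI against Sham-SCI, so it is not a separate test of ES. On each of these days 0% of all genes were called. An unadjusted p under 0.05 was reached by 0 of the 9 genes on each day, beside 7.28%, 3.07% and 2.84% of all genes. The 3 comparisons share the SCI arrays. The SCI-ES rats of 1 and 3 days had fewer days between implantation surgery and tissue collection than the SCI rats, so that for these groups stimulation and time since surgery cannot be told apart.

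At 1 day, 8 of the 9 genes lay below SCI on average and the differences ran from -0.90 (Lum, 95% CI -2.08 to 0.29) to 0.91 (Fmod, -0.94 to 2.75). Fn1 read 11.60, 11.15 and 11.23 after 1 day of ES, each below the lowest SCI array at 11.79, with a difference of -0.66 ± 0.41 (limma adjusted p = 0.760). It was the 1 gene of 9 whose groups did not overlap. Of all genes 11.4% did not overlap in either direction, and 5.36% lay below in this way. At 3 days the range ran from -0.16 (Lox) to 0.19 (Loxl1), the narrowest of the 3 days.

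At 7 days Postn read 11.65, 12 and 9.40, with a difference from SCI of -0.06 (95% CI -1.22 to 1.10). The third array lay below every SCI array and the other two above. Lox differed by -0.41 (-1.69 to 0.86) and Fmod by 0.73 (-1.12 to 2.57). Replicate 3 of this group was lowest for 8 of the 9 genes, and its mean over the fibroblast markers was 8.32, beside 9.06 and 9.30 on the other two arrays. Without it the Postn difference was 0.75 and that of Lox 0.33, with neither called. From 1 to 7 days of ES the differences ran from -0.32 (Lox) to 0.66 (Lum), with 0 of 9 genes called, 0% of all genes called, and 0 of 9 beside 12.1% of all genes at an unadjusted p under 0.05.

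The ablation experiment asks what a mechanical overload did beyond the surgery itself. Against Sham-GA of the same day, 0 of the 9 genes were called on any day by limma. An analysis of variance for the main effect of GA over all days called 0 as well. Of all genes limma called 0.0554% at 1 day and 0% at 3 and 7 days. The number of members with an unadjusted p under 0.05 was 0 at 1 day, 7 at 3 days and 0 at 7 days, beside 13.7%, 16.5% and 2.63% of all genes.

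At 1 day, Fmod read 8.24, 7.82 and 8.16 after GA and 8.63, 9.51 and 9.40 after the sham surgery, and Sparc 11.40, 11.49 and 11.36 against 11.80, 11.62 and 11.89. In these 2 of 9 genes every GA array lay below every sham array, which held for 11.1% of all genes. In either direction 16.6% of all genes did not overlap. The differences were -1.10 ± 0.66 for Fmod (limma adjusted p = 0.483) and -0.35 ± 0.26 for Sparc (adjusted p = 0.583). Fn1 was 0.55 ± 0.40 higher on average (adjusted p = 0.582).

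At 3 days all 9 differences were above 0, with a median of 0.91 beside -0.03 over all genes, and all 9 pairs of groups overlapped, where 13.5% of all genes did not. Lox read 11.62, 10.80 and 11.80 after GA and 8.23, 11.44 and 9.15 in Sham-GA, a difference of 1.80 ± 0.56 (adjusted p = 0.288). Postn read 11.66, 10.49 and 10.76 against 8.58, 10.73 and 9.28, a difference of 1.45 ± 0.49 (adjusted p = 0.288). In both genes the second sham array stood with the GA arrays, well above the other two.

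That array, Sham-GA 3 days replicate 2, was the highest of its group for 7 of the 9 genes. It also had the highest mean of its group over the fibroblast markers (9.09, beside 8.03 and 8.36) and over the macrophage markers (10.24, beside 8.71 and 9.32). Without it, 7 of the 9 genes were called higher in GA at 3 days: Lox at 2.72 (limma adjusted p = 0.008), Postn at 2.05 (0.021), Lum at 1.95 (0.014), Fn1 at 1.54 (0.023), Bgn at 1.40 (0.014), Sparc at 1.19 (0.014) and Loxl1 at 0.95 (0.028). Without the same array 1286 of all genes were called, against 0 with it, so the shift was not limited to the matrix genes. Other lists were also displaced at 3 days with all arrays in. Above 0 were 11 of 11 macrophage markers (median 0.81), 9 of 10 fibroblast markers (0.64) and 18 of 18 collagen genes (0.74), and below 0 were 10 of 10 muscle fibre markers (-0.27). None of these was called, and the part of these cell types was not tested. The remaining sham group then held 2 arrays, and the array was singled out after its values were seen.

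At 7 days GA and Sham-GA overlapped in all 9 genes, where 11.2% of all genes did not. Differences ran from -0.19 (Loxl1, 95% CI -0.71 to 0.34) to 0.83 (Fmod, -0.57 to 2.22). Postn, at 12.54, 12.59 and 13.02 after GA, read 11.84, 12.34 and 12.91 after the sham surgery, so both groups were high. Averaged over the 3 days, the effect of GA was largest for Lox at 0.89 ± 0.32 (adjusted p = 0.194) and Fn1 at 0.53 ± 0.23 (adjusted p = 0.239), the 2 genes of 9 with an unadjusted p under 0.05, which 19.3% of all genes had. None of the 9 was called, and 0% of all genes were. Without Sham-GA 3 days replicate 2, 3 of the 9 were called, as were 493 of all genes.

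The responses to ES and to GA, each against its own control, were set against each other at the same day. No member was called at 1, 3 or 7 days by limma, with 0.0554%, 0% and 0% of all genes called. The count of members at an unadjusted p under 0.05 was 0, 1 and 0, beside 13%, 9.47% and 3.14% of all genes. The single gene was Lox at 3 days, whose difference of the responses was -1.96 ± 0.86 (adjusted p = 0.494). Postn gave -0.18, -1.39 and -0.42 over the days. The 3-day values contain the sham array described above.

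In the ablation experiment, more of these genes were called between days within a group than between GA and Sham-GA of the same day. From 1 to 7 days, 6 of the 9 genes were called higher in GA and 5 of 9 in Sham-GA, where 5.66% and 3.46% of all genes were called higher. All 9 differences lay above 0 in both groups. In the counts that follow, a gene that rose or fell is one that was called. Every GA array at 7 days lay above every GA array at 1 day for all 9 genes, and in Sham-GA this held for 7 of 9. The corresponding shares of all genes were 16.7% and 10.5%.

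Periostin rose most. Postn read 9.09, 8.89 and 9.81 at 1 day of GA and rose by 3.45 ± 0.49 to its 7-day values, or 10.96 fold (limma adjusted p = 4.05e-04). In Sham-GA it went from 10.37, 9.30 and 9.04 to its 7-day values, a rise of 2.80 ± 0.49, or 6.94 fold (adjusted p = 0.003). Sparc, the collagen-binding glycoprotein, read 11.40, 11.49 and 11.36 at 1 day of GA and 13.42, 13.38 and 13.68 at 7 days, a rise of 2.07 ± 0.26 (adjusted p = 1.91e-04). In Sham-GA it rose by 1.52 ± 0.26 (adjusted p = 0.003), from 11.80, 11.62 and 11.89 to 12.98, 13.35 and 13.56.

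Fibronectin did not pass the test in either group. Fn1 read 12.70, 12.12 and 12.41 at 1 day of GA and 12.96, 12.97 and 13.14 at 7 days, a difference of 0.61 ± 0.40 (adjusted p = 0.364). In Sham-GA the first 1-day array stood at 12.79 and the other two at 11.40 and 11.38, against 12.83, 13.01 and 13.12 at 7 days, a difference of 1.13 ± 0.40 (adjusted p = 0.088). Without that first array the difference was 1.60 and was called (adjusted p = 0.026).

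Of the proteoglycans, lumican and biglycan rose in both groups. Lum went from 9.46, 10.24 and 9.97 to 12.57, 12.41 and 12.89 in GA, a rise of 2.73 ± 0.43 or 6.66 fold (limma adjusted p = 8.13e-04). In Sham-GA the rise of Lum was 2.24 ± 0.43 (adjusted p = 0.005), from 10.42, 9.47 and 10.47 to 11.94, 12.30 and 12.83. Bgn rose by 2.20 ± 0.31 in GA (adjusted p = 4.64e-04), from 10.75, 11.16 and 10.74 to 13.08, 12.95 and 13.22. Its rise in Sham-GA was 1.79 ± 0.31 (adjusted p = 0.003). Dcn, which lies beside Lum on chromosome 7, differed by 0.51 ± 0.15 in GA (adjusted p = 0.034) and by 0.42 ± 0.15 in Sham-GA (adjusted p = 0.084), both under 1.5 fold and so not called.

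Fibromodulin was called in GA alone. Fmod rose from 8.24, 7.82 and 8.16 to 11.23, 9.71 and 11.16, by 2.63 ± 0.66 (limma adjusted p = 0.015). This call ended without GA 7 days replicate 1 (limma adjusted p = 0.065) or replicate 3 (0.068). It also ended by the analysis of variance, for the main effect of day over all GA and Sham-GA arrays (adjusted p = 0.105). In Sham-GA it read 8.63, 9.51 and 9.40 at 1 day and 8.52, 10.97 and 10.13 at 7 days, a difference of 0.70 ± 0.66 (adjusted p = 0.578). The change in the effect of GA from 1 to 7 days, which tests the difference between these 2 time courses, was 1.93 ± 0.93 for Fmod (adjusted p = 0.613) and lay between -0.52 (Fn1) and 0.66 (Postn) for the other 8 genes. By that test 0 of 9 genes and 0% of all genes were called, and 0 of 9 had an unadjusted p under 0.05, beside 8.26% of all genes.

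Of the crosslinking enzymes, Loxl1 rose in both groups, by 1.59 ± 0.25 in GA (limma adjusted p = 7.59e-04) and by 1.66 ± 0.25 in Sham-GA (adjusted p = 0.001). It read 9.32, 9.81 and 9.21 at 1 day of GA and 10.69, 11.29 and 11.11 at 7 days, and in Sham-GA 9.28, 9.62 and 9.78 and then 11.02, 11.28 and 11.36. Lox went from 9.94, 10.04 and 10.36 to 11.26, 11.12 and 11.54 in GA, a difference of 1.19 ± 0.56 (adjusted p = 0.189). In Sham-GA the Lox arrays of the 2 days overlapped, with a difference of 0.91 ± 0.56 (adjusted p = 0.353). The calls of Postn, Sparc, Lum, Bgn and Loxl1 in both time courses held without any single array and under each other setting tried.

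The 3-day groups, compared after the values had been seen, divide this interval. In GA, 3 of the 9 genes were called higher from 1 to 3 days, namely Lum by 1.88 (adjusted p = 0.027), Sparc by 1.51 (0.009) and Bgn by 1.38 (0.027), with 2.37% of all genes called higher. All 9 lay above 0, and 7 had an unadjusted p under 0.05, beside 19.8% of all genes. In Sham-GA none was called over those days by limma, with 0 of 9 beside 5.43% of all genes at an unadjusted p under 0.05, differences from -0.21 (Lox) to 0.36 (Sparc) and 0% of all genes called. From 3 to 7 days, 5 genes were called higher in Sham-GA, namely Postn by 2.84 (adjusted p = 0.011), Lum by 1.92 (0.042), Loxl1 by 1.65 (0.006), Bgn by 1.54 (0.028) and Sparc by 1.16 (0.039), with 1.2% of all genes called higher. In GA none was called from 3 to 7 days, where 0.242% of all genes were, and 4 of 9 had an unadjusted p under 0.05, beside 11.1% of all genes. Of these GA differences, 8 of 9 still lay above 0. Postn in GA differed by 1.71 from 1 to 3 days (limma adjusted p = 0.064) and by 1.75 from 3 to 7 days (0.157). These counts depended on the arrays and on the test. The 3 calls of GA from 1 to 3 days became 0 to 3 without single arrays. The analysis of variance took its p from the main effect of day over all GA and Sham-GA arrays, and only the fold from GA. By it 5 genes passed for GA from 1 to 3 days and 4 from 3 to 7 days, which is not a test of GA alone. The 5 calls of Sham-GA from 3 to 7 days became 1 to 7 without single arrays, 3 with the replicate block and 0 with only the groups compared. The difference between the 2 courses at 3 days is the GA effect at 3 days given above, which did not pass the test with all arrays. The comparisons within each group share arrays, so they are not separate evidence.

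Other matrix genes were high at 7 days as well. Of the 18 collagen and collagen-processing genes, 13 rose from 1 to 7 days in GA and 13 in Sham-GA, with medians of 1.91 and 1.73 beside -0.05 and -0.03 over all genes. Col1a1, the main chain of type I collagen, rose by 3.09 in GA (limma adjusted p = 4.89e-04) and by 2.89 in Sham-GA (0.001), and Col3a1 by 2.67 and 2.82. Of the 16 elastic fibre genes 10 rose in GA and 10 in Sham-GA, with Mfap2, a microfibril protein, at 3.47 and 3.29. In the 9 other small leucine-rich proteoglycans 5 rose in GA and 4 in Sham-GA, with Kera, the keratocan gene, at 3.09 in GA (adjusted p = 0.007).

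Among 13 other matricellular genes, 6 rose and 1 fell in GA, and 3 rose in Sham-GA. Of all genes, 2.94% were called lower in GA and 3.11% in Sham-GA over these days. Tnn, which encodes the tenascin family member tenascin N, rose by 5.73 in GA (limma adjusted p = 0.003) and by 3.51 in Sham-GA (0.048). Ccn1, an early-response gene, fell by 1.91 in GA. Of the 9 other crosslinking enzymes 4 rose and 1 fell in GA and 2 rose in Sham-GA, with Loxl2, another lysyl oxidase, at 1.94 and 2.17. Of 15 matrix receptors 6 rose and 1 fell in GA, led by the collagen-binding integrin Itga11 at 2.13, and 4 rose in Sham-GA. Of 19 metalloproteinases and inhibitors 7 rose in GA and 6 rose and 1 fell in Sham-GA, with Mmp14, a membrane-bound collagenase, at 2.83 and 2.89. Large and cell-surface proteoglycans differed from these lists, with 3 of 14 up and 1 down in GA and 1 up in Sham-GA. For the 14 TGF-β pathway genes the medians were 0.00 in GA and -0.07 in Sham-GA, and 2 fell in each while 2 rose in Sham-GA.

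Markers of cell types moved over the same days. The mean of the 10 fibroblast markers lay between 7.87 and 8.31 at 1 day of GA and between 9.32 and 9.58 at 7 days, and in Sham-GA between 8.12 and 8.38 and between 9.52 and 9.73. Of these 10 genes 6 rose in each course, and Thy1, a surface protein found on fibroblasts among other cells, rose by 3.86 and 3.71. The macrophage list had 4 of 11 up and 1 down in GA and 3 up in Sham-GA. The neutrophil list had 4 of 8 down in GA, with Cxcr2 at -3.70, where 2.94% of all genes were called lower. No muscle fibre marker of 10 was called in either course, and the mean over them stayed between 13.11 and 13.40 on all 1-day and 7-day arrays of the ablation experiment. As the fibroblast list includes matrix genes, its mean is not taken as a measure of fibroblast amount. The part of these cell types in the rise of the matrix genes was not tested.

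**Figure D3:**
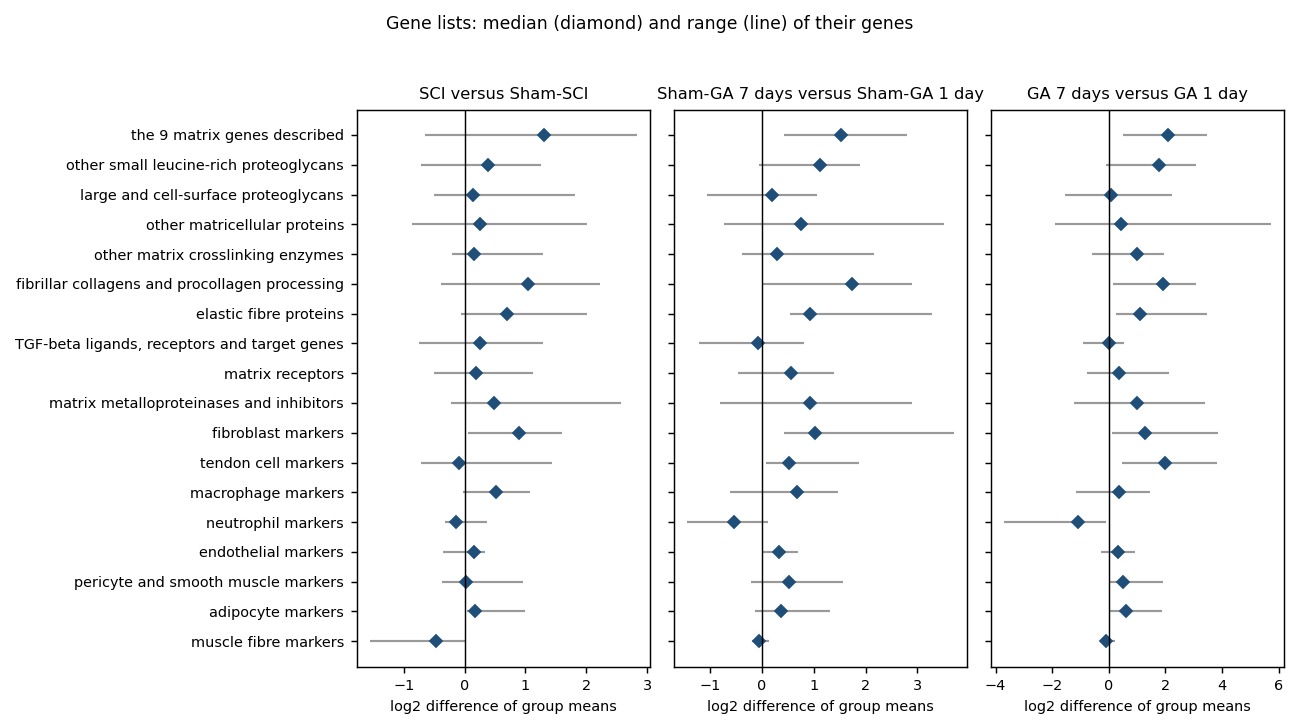
Median (diamond) and range from lowest to highest gene (line) of the log2 difference of group means (horizontal axis) for 18 gene lists in 3 comparisons. The 9 genes described here have medians of 1.31, 1.52 and 2.07, near those of the collagen list at 1.04, 1.73 and 1.91, whereas the medians of the muscle fibre markers lie below 0.

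Fmod did not follow the other 8 genes. Over the 11 group means, the 28 pairs among those 8 correlated at r of 0.66 or more, and the 8 pairs with Fmod between 0.21 and 0.63, as a description over groups that share an array platform and normalization. Its spread within groups reached an SD of 2.15 in SCI, against at most 1.66 in any group for the other genes. The genes whose group means were most like Fmod were Kera (r = 0.94), Rab27b (0.92) and Tnmd (0.91). Kera and Tnmd, the tenomodulin gene, were both on the list of tendon cell markers, and Kera was also among the other small leucine-rich proteoglycans counted above, as was the tendon marker Chad.

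Some of the tendon genes were low on the arrays with low Fmod. On the SCI arrays Fmod read 6.38, 9.73 and 10.40, Tnmd 4.75, 7.67 and 8.13 and Kera 5.22, 8.47 and 9.10, all lowest on the first array, which was the lowest of its group for all 9 members. On the 7-day Sham-GA arrays Fmod read 8.52, 10.97 and 10.13, Tnmd 6.19, 9.17 and 8.66 and Kera 7.63, 10.14 and 9.29. The 6 of 33 arrays with the lowest Fmod were also the 6 lowest for Tnmd, and 5 of them were among the 6 lowest for Kera, for Comp and for Cilp2, 4 for Cilp, 3 for Scx and 2 for Chad. For the other members the number was 4 for Sparc and Dcn, 2 for Postn and Bgn, 1 for Lum, Lox and Loxl1 and 0 for Fn1. The number 6 was chosen after the values were seen.

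Over the 7 of 9 tendon markers measured, the array means ran from 6.90 to 7.38 at 1 day of GA and from 8.69 to 9.54 at 7 days, and 6 of the 7 rose between those days, with a median of 1.99. In Sham-GA 1 of the 7 rose, with a median of 0.53, and array means ran from 7.70 to 8.41 and from 8.21 to 9.61. Of all genes 5.66% were called higher in GA and 3.46% in Sham-GA over these days. By the test of the difference between these 2 time courses, 0% of all genes were called, the tendon markers included. Tnmd rose by 3.80 in GA (limma adjusted p = 0.002) and differed by 1.16 in Sham-GA (adjusted p = 0.317). The GA surgery cut a tendon beside the soleus, and how much tendon each muscle sample held was not tested as a part of the Fmod values.

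**Figure D4:**
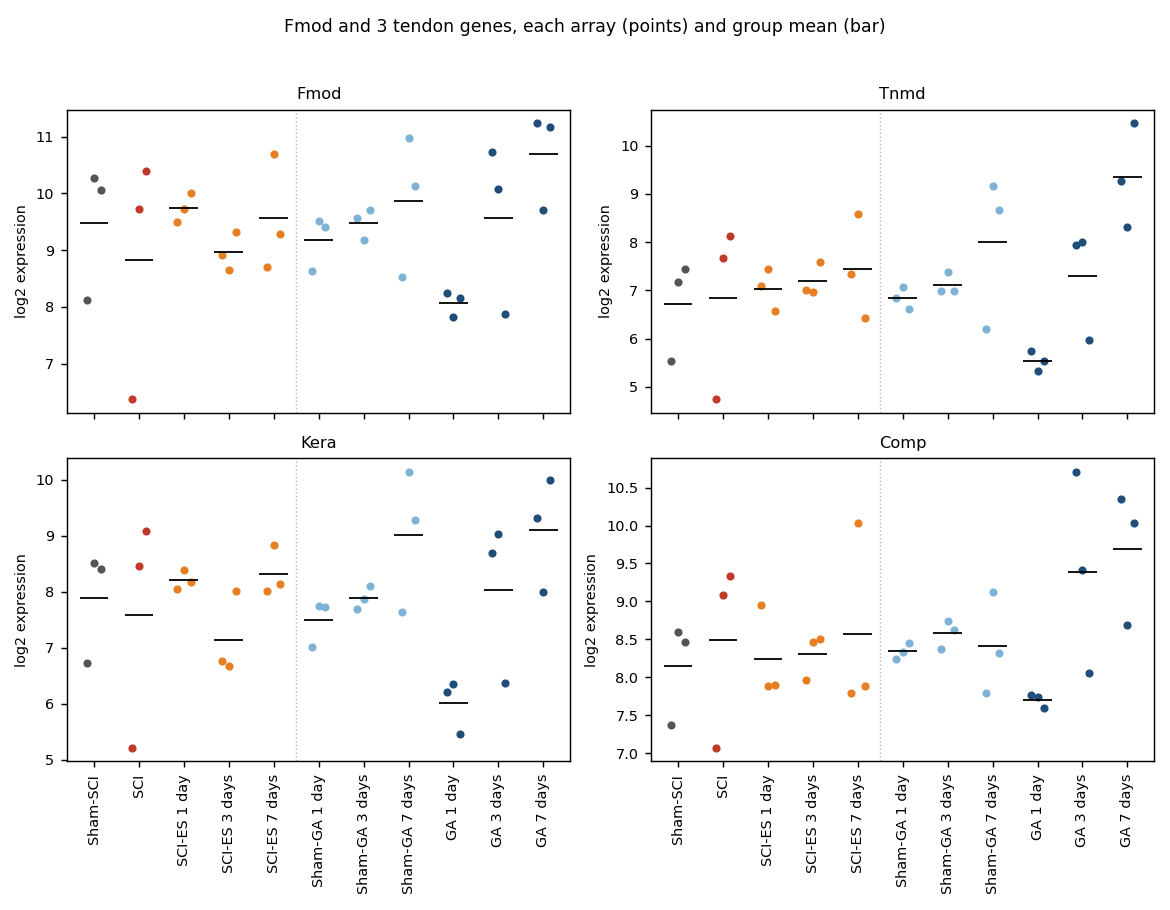
Log2 expression (vertical axes) of Fmod and of the tendon genes Tnmd, Kera and Comp on each of the 33 arrays (points), by group, with group means as bars. SCI replicate 1 is the lowest array for Fmod at 6.38 and for Tnmd at 4.75 and Kera at 5.22, and the GA 1 day arrays lie low in all 4 genes.

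Among the other 8 genes, the closest companions over the 11 group means were other matrix genes in several cases. For Sparc they were Prtfdc1, Col1a1 and Col1a2 (r = 0.99 each), for Bgn Col3a1, Sema4c and Pcolce, the enhancer of procollagen processing (0.99 each), and for Lum Ppic, Scpep1 and Col5a1 (0.99 each). Postn was closest to Aebp1, Timp2 and Ccdc80 (0.99 each), and Dcn to Ccdc80 (0.98), Ror1 and Capn6 (0.97 each). For Fn1 they were Asap1 (0.99), Reep3 and Wasf2 (0.98 each), for Loxl1 Sulf2 (0.99), Sbsn and Bicc1 (0.98 each), and for Lox Pdk3 (0.98), A2m and Rpl3 (0.97 each). These are the highest correlations among all genes of the array and carry no test.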

How the data were processed

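Soleus RNA of 33 rats was measured on 1 Affymetrix array each. The authors background-corrected, quantile-normalized and summarised the probes by robust multi-array average (RMA, oligo) and deposited log2 values for 29214 transcript clusters. The study's methods name exon arrays, and the cluster identifiers were named through the platform's gene annotation, where 15310 rows carried 1 gene symbol. The brightest row of a gene was used. The series' design text gives 2 days where the labels give 3 days of ES, and both hindlimbs where the methods give the left. The labels were followed.

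Groups were compared with limma (version 3.58.1, R 4.3.3), with 1 mean per group over the 15 arrays of the cord experiment, the 18 of the ablation experiment, or all 33 for ES against GA. Genes with a mean of at least 3 were tested, and SE, 95% confidence intervals and Benjamini-Hochberg adjusted p came from these fits. The procedure was checked on simulated data. Alternatives covered the filters, normalization, prior, samples fitted, replicate block, an analysis of variance adapted from the methods and leaving out each array. That analysis of variance gave 1 p over all cord groups, or for GA, day or their interaction over all ablation arrays. It added the Benjamini-Hochberg adjustment and left out the variance filter of the methods. Named genes were all members, the largest called genes and range ends of each list, and the 3 genes most like each member. Markers such as Tnmd, and Fmod's lowest arrays, were singled out after their values were seen. Members and lists were chosen with earlier results of these data known, and the 4 comparisons with the 3-day groups over time were added later.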

Additional observations from a re-analysis of the deposited data

How the results depend on the processing

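The differences of 84 member values were recomputed, not those of every member in every comparison, so call changes of the other values are not in these sums. Of 984 recomputed member values under settings other than leaving out an array, 959 kept their direction and side of the threshold, 1 turned, 12 lost and 12 gained a call. Of 669 values with an array left out these numbers were 570, 36, 48 and 15. The counts of members called below cover every member, and each follows its value with all arrays and the settings of the report.
In SCI against Sham-SCI, 1 member was called, and 0 with the replicate block, 3 with all 33 arrays in 1 fit and 4 with only the groups compared. By the analysis of variance it was 0, and without single arrays 0 to 0. In the pooled cord comparison, 4 members were called, and 0 by the analysis of variance and 0 to 7 without single arrays. The 3-day GA comparison went from 0 to a range of 0 to 7, and the mean GA effect from 0 to a range of 0 to 3, both highest without Sham-GA 3 days replicate 2. For GA 7 against 1 day the 6 calls ranged from 5 to 8 over settings and 5 to 7 without single arrays, and for Sham-GA the 5 calls from 5 to 6. From 1 to 3 days of GA, 3 calls became 5 by the analysis of variance and 0 to 3 without single arrays, from 3 to 7 days of GA 0 became 4 by the analysis of variance, and from 3 to 7 days of Sham-GA 5 became 3 with the replicate block, 0 with only the groups compared and 1 to 7 without single arrays. For comparisons of days the analysis of variance tested the main effect of day over all GA and Sham-GA arrays, not 1 group alone. The causes were not tested.
Over all genes, the counts of calls and their lowest and highest values under other settings, single arrays included, were 58 with 1 to 154 for SCI, 243 with 1 to 434 for the pooled cord comparison, 0 with 0 to 27 for ES at 1 day, 0 with 0 to 99 for ES at 7 against 1 day, 8 with 0 to 182 for GA at 1 day, 0 with 0 to 1286 at 3 days, 0 with 0 to 1 at 7 days, 0 with 0 to 493 for the mean GA effect, 949 with 455 to 1491 for Sham-GA 7 against 1 day, 0 with 0 to 3 for the change in the GA effect, 8 with 1 to 102 and 0 with 0 to 1 for ES minus GA at 1 and 7 days, and, with the 3-day groups over time, 446 with 27 to 602 and 35 with 3 to 359 in GA and 0 with 0 to 139 and 186 with 6 to 852 in Sham-GA.
Among the member values recomputed, signs turned only in uncalled ones. The Fmod difference of GA at 3 days was -0.022 with each array centred on its median. Without single arrays Fmod ran from -1.43 to 0.58 in SCI, from -0.89 to 0.18 in the pooled cord comparison, from -0.32 to 1.69 at 1 day and from -0.50 to 1.51 at 7 days of ES, from -0.51 to 0.93 for GA at 3 days, from -0.29 to 0.22 for the mean GA effect and from -1.18 to 0.83 for ES minus GA at 3 days. Lox ran from -0.44 to 0.12 and from -0.92 to 0.33 for ES at 3 and 7 days, from -0.83 to 0.42 for ES at 7 against 1 day, from -1.12 to 0.48 for Sham-GA and from -0.40 to 0.10 for GA in the 3-day comparisons over time. Loxl1 ran from -0.072 to 0.42 for ES at 3 days and from -0.092 to 0.73 for ES minus GA at 7 days, Postn from -0.55 to 0.75 for ES at 7 days and from -0.64 to 0.43 for Sham-GA at 3 against 1 day, and Lum from -0.30 to 0.80 in the latter.
Replicate numbers did not pair the samples: correlations of deviations ran from -0.72 to 0.61 over 7 pairs of groups, and 9 of 42 samples correlated best with their own number. With the replicate block, Postn in SCI had adjusted p = 0.055 in limma. With 3 arrays a group, precision rests on few animals.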
